A study of Homo sapiens with 4 samples.

Results

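The genes of the switch from germinal center B cell to plasma cell are BCL6, BACH2, IRF4, PRDM1, XBP1, IRF8, MEF2B, MEF2C and FOXP1. They were chosen by name and matched to the deposited gene table by symbol, which gave 9 of 41507 genes, and their transcripts are 57 of 67765 in the transcript table. The measurements are RNA sequencing levels in SU-DHL-5 and Toledo, established human lines of diffuse large B-cell lymphoma (DLBCL). Each line was treated with JQ1 at 1 µM, an inhibitor of BET proteins, which read acetylated histones, or with DMSO, the solvent. Treatment lasted 6 h by the sample labels, while the legend in the publication states 8 h. The groups were SU-DHL-5 with DMSO, SU-DHL-5 with JQ1, Toledo with DMSO and Toledo with JQ1, with 1 sample each, and each sample has 2 libraries. The labels and file headers do not say whether these are repeat preparations, runs or cultures, so what their lack of overlap covers is unknown.

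Germinal center B cells mutate and select their antibody genes, and BCL6 holds them in that state by repressing the genes of terminal differentiation. BACH2, IRF8 and the MEF2 and FOXP1 factors act on the germinal center side, whereas IRF4, PRDM1 (BLIMP-1) and XBP1 drive the plasma cell programme, in which PRDM1 represses BCL6 and XBP1 expands the secretory machinery. Lymphomas of this origin keep parts of these opposing programmes and differ from line to line in which factors they express.

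Levels are RPKM, reads per kilobase of the gene scaled to the mapped reads of the library, and are per length, so genes can be compared. A difference is the log2 ratio of group means after adding 0.1 RPKM, a fold is the ratio of means with nothing added, and a gene was tested where it reached 1 RPKM in the mean of either group. A gene is called where it is past 2-fold and both libraries of a sample lie above both of the other. Intervals are 95% exact binomial intervals of the ratio of recovered reads. A count of 0 is given with the share that 3 reads would make. Intervals and these limits cover counting error only, and with n = 1 sample per condition the differences are without a replicate check, so p-values were not computed.

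The DMSO libraries of Toledo differed from each other with gene length. The median log2 ratio of library 2 over library 1 was −0.15 in the shortest of 10 classes of length and 0.31 in the longest. In SU-DHL-5 with DMSO it ran from 0.03 to −0.04 between the same classes, and in Toledo with JQ1 it reached −0.13 in the longest. Among the longest of the 9 genes, this log2 ratio in Toledo DMSO was 0.50 for MEF2C, 0.41 for PRDM1, 0.40 for BACH2, 0.35 for FOXP1 and 0.13 for BCL6. The part of this gap in their ratios was not tested.

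**Figure D1:**
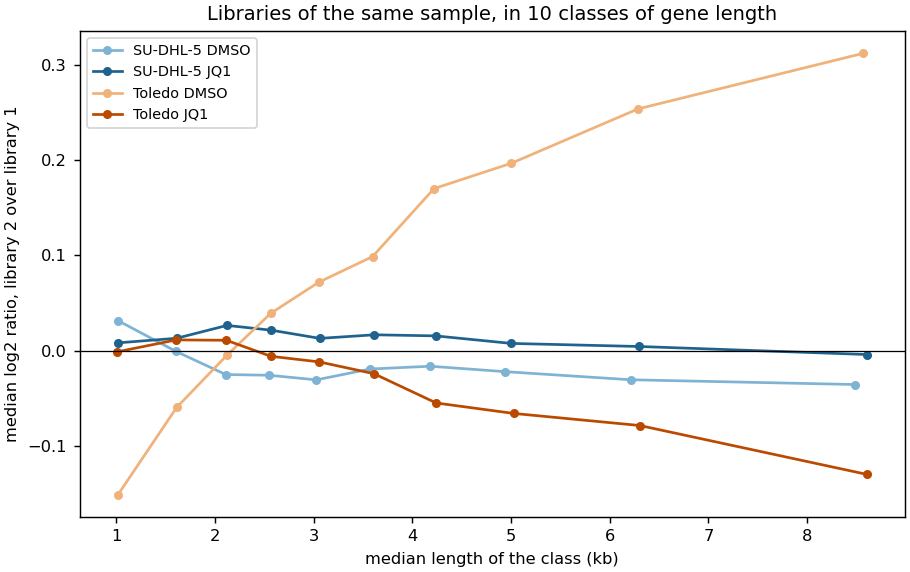
Median log2 ratio of library 2 over library 1 of a sample (vertical axis) in 10 classes of gene length (horizontal axis, kb), with a line for each of the 4 samples. Toledo DMSO climbs from −0.15 to 0.31, while the other samples stay between −0.13 and 0.03.

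The lines were compared first without JQ1, to ask which side of the switch each expresses. SU-DHL-5 with DMSO carried high BCL6, IRF8 and MEF2B and almost no IRF4, and Toledo with DMSO carried IRF4 and XBP1 with far less BCL6, IRF8 and MEF2B. BACH2 and FOXP1, also of the germinal center side, were higher in Toledo, at log2 ratios of 0.52 and 0.70, short of 2-fold. With each library left out in turn, BACH2 ranged from 0.30 to 0.71 and FOXP1 from 0.51 to 0.86. Of the 9 genes, 8 were tested, and PRDM1 was below 1 RPKM in both lines. In Toledo, 2 were called higher (IRF4 and XBP1) where 16.7% of 10078 tested genes were called higher, and 4 were called lower (BCL6, IRF8, MEF2B and MEF2C) where 14.2% were. By the libraries alone, 4 lay above without overlap (43.2% of all tested genes) and 4 below (41.9%). The 4 above were IRF4, XBP1, BACH2 and FOXP1. Fewer cells of a kind and less RNA per cell cannot be told apart in such bulk samples.

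**Figure D2:**
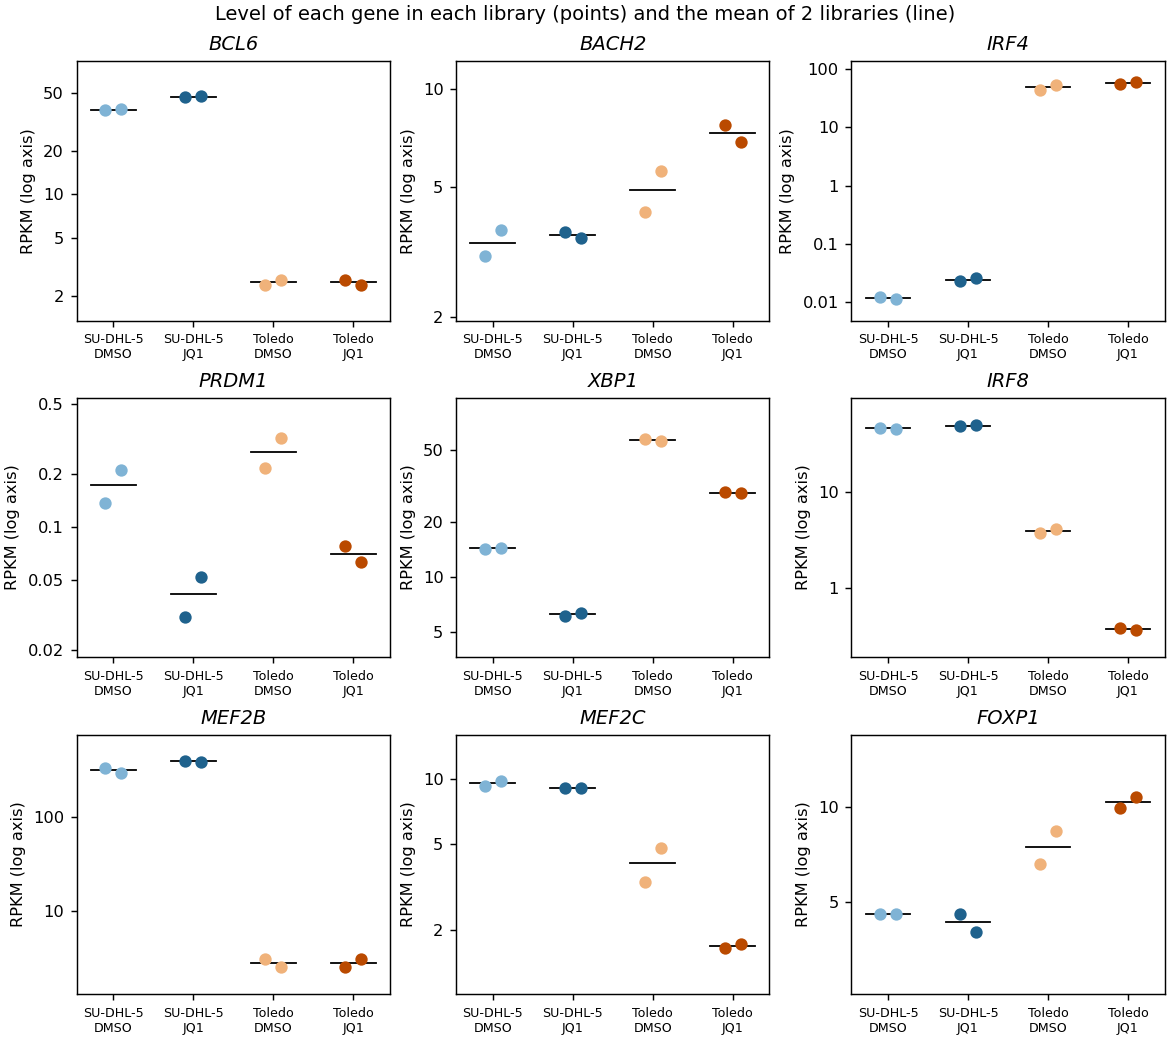
Level of each of the 9 genes in RPKM on a log axis, with a point for each library and a line at the mean of the 2 libraries of a sample. BCL6, IRF8 and MEF2B stand high in SU-DHL-5, IRF4 stands between 44.2 and 60.1 RPKM in Toledo against at most 0.0257 in SU-DHL-5, and IRF8 in Toledo is lowest with JQ1.

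BCL6 (chr3:187721377-187745725, minus strand, positions on GRCh38) encodes the repressor that maintains the germinal center state. It stood at 38.0 and 38.3 RPKM in the DMSO libraries of SU-DHL-5, at 46.3 and 47.3 in its JQ1 libraries, at 2.37 and 2.60 in the DMSO libraries of Toledo and at 2.60 and 2.39 in its JQ1 libraries. The lines did not overlap, and with DMSO the level was 15.4-fold lower in Toledo (14.2 to 16.7). With JQ1, the SU-DHL-5 libraries lay above DMSO by a log2 ratio of 0.29 (0.25 to 0.33), short of 2-fold, and by 0.11 after genes were centred in classes of length. In Toledo the treatments overlapped, with a log2 ratio of 0.01 (−0.15 to 0.17), and the value was −0.05 after the same centring and from −0.06 to 0.07 with each library left out in turn. BCL6_1 was the leading transcript in all 4 samples, with 67.0% to 75.4% of the reads of the gene.

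BCL6 binds a motif searched here as TTCCTAGAA on both strands in RefSeq promoter windows (GRCh38.p14, 250 bases before to 50 after a start). The 9 genes have 24 such windows. The motif lies in 1 of them, a BCL6 window, and in 131 of all 35116 windows (0.373%). The stretch around it is shown because it carries the letters of the factor in the gene of the factor itself. It lies at chr3:187745419-187745442, is read on the minus strand, and holds the motif as its reverse complement, in capitals. The RefSeq start of the window is 257 bases from the start of BCL6_1, and a match is a description, not a site.
BCL6 element: tgcaagaagtTTCTAGGAAaggcc

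BACH2 (chr6:89926528-90296908, minus strand) is a repressor that delays plasma cell differentiation. Its levels were 3.06 and 3.68 RPKM in SU-DHL-5 with DMSO, 3.63 and 3.48 with JQ1, 4.19 and 5.57 in Toledo with DMSO, and 7.73 and 6.87 with JQ1. All Toledo libraries lay above all SU-DHL-5 libraries. With JQ1 the Toledo libraries lay above DMSO by a log2 ratio of 0.57 (0.50 to 0.68), short of 2-fold. It was 0.38 without Toledo DMSO library 1 and 0.79 without library 2. In SU-DHL-5 the treatments overlapped at 0.08 (−0.04 to 0.19), which was −0.11 after centring by length and −0.05 without SU-DHL-5 DMSO library 1 and 0.21 without library 2.

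MEF2B (chr19:19145567-19170289, minus strand) is a MADS-box factor that activates BCL6 in germinal center B cells. It was at 334 and 290 RPKM in SU-DHL-5 with DMSO and at 390 and 387 with JQ1, and at 3.04 and 2.50 in Toledo with DMSO and 2.54 and 3.03 with JQ1. SU-DHL-5 lay far above Toledo in every library, at rank 209 of 9120 genes of at least 1 RPKM in its DMSO sample. With DMSO the level was 113-fold lower in Toledo (94.5 to 133). With JQ1 the log2 ratio was 0.32 (0.29 to 0.35) in SU-DHL-5, with both JQ1 libraries above DMSO and short of 2-fold (0.22 without SU-DHL-5 DMSO library 2), and 0.01 (−0.36 to 0.36) in Toledo, where the libraries overlapped and leaving each out gave −0.12 to 0.15. The read-through gene MEF2BNB-MEF2B overlaps it and had 7.67 and 6.76 RPKM in SU-DHL-5 with DMSO and 0.464 and 0.284 in Toledo. How reads common to both genes were divided is unknown.

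MEF2C (chr5:88718241-88904105, minus strand), a paralog of MEF2B active in B cells, had 9.24 and 9.76 RPKM in SU-DHL-5 with DMSO, 9.06 and 9.06 with JQ1, 3.33 and 4.77 in Toledo with DMSO, and 1.65 and 1.71 with JQ1. The SU-DHL-5 libraries were all near 9 RPKM, and the JQ1 libraries of Toledo were the lowest and did not overlap with its DMSO libraries. In Toledo MEF2C fell by 1.22 on the log2 scale with JQ1 (read interval −1.43 to −1.09), past 2-fold, but without Toledo DMSO library 2 the value was −0.95 and the call ended, as it did with 1 RPKM added, at −0.91. The baseline difference of −1.21 between the lines was called, and it was −0.98 and not called without Toledo DMSO library 1. In SU-DHL-5 the log2 ratio with JQ1 was −0.07 (−0.16 to 0.02), −0.25 after centring by length and −0.11 to −0.03 with each library left out in turn. MEF2C_11 led in all 4 samples, among 15 listed transcripts.

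FOXP1 (chr3:70954714-71583989, minus strand) is a forkhead factor of B cells that restrains plasma cell differentiation. Its levels were 4.58 and 4.57 RPKM in SU-DHL-5 with DMSO, 4.58 and 4.01 with JQ1, 6.57 and 8.38 in Toledo with DMSO, and 9.93 and 10.8 with JQ1. Toledo lay above SU-DHL-5 in every library, and its JQ1 libraries lay above its DMSO libraries by a log2 ratio of 0.46, short of 2-fold (0.40 to 0.55 on reads). Without Toledo DMSO library 1 it was 0.30. In SU-DHL-5 the treatments overlapped at −0.09 (−0.19 to 0.02), with −0.27 after centring by length, −0.18 without JQ1 library 1 and 0.0017 without JQ1 library 2.

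In the deposited values the leading FOXP1 transcript differed between the lines. FOXP1_10 led in SU-DHL-5 with 55.7% of the reads with DMSO and 49.1% with JQ1, and FOXP1_17 led in Toledo with 54.2% and 52.0%. FOXP1_17 had 0 of 1557 reads in SU-DHL-5 with DMSO, which allows a share of up to 0.193%, and 0 of 1398 with JQ1, which allows up to 0.215%. By start, transcripts that begin 519 kb downstream of the first start took 8.16% of reads in SU-DHL-5 with DMSO (6.84% to 9.63%), 8.58% with JQ1 (7.17% to 10.2%), 68.0% in Toledo with DMSO (66.2% to 69.8%) and 80.3% with JQ1 (78.9% to 81.6%). The libraries of SU-DHL-5 with DMSO differed, at 13.4% and 3.34%, and every Toledo library was higher, from 62.3% to 83.2%. Transcripts that begin 278 kb downstream took 58.3% in SU-DHL-5 with DMSO and 4.15% in Toledo with DMSO, where the libraries had 1.74% and 6.21%. FOXP1_16 and FOXP1_17 both have 6385 bases and start at 71064926 and 71064923. In SU-DHL-5 with DMSO, FOXP1_16 had 127 reads where FOXP1_17 had 0. How reads common to several transcripts were divided is not stated. These shares describe the deposited values, and their intervals and limits do not cover that division.

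Transcripts with the downstream start were given most FOXP1 reads in Toledo, while use of the start itself was not measured. The promoter window of this start is shown because of that share. It is RefSeq sequence on GRCh38.p14, chr3:71064925-71065174, minus strand, 1 base from the start of FOXP1_17. Capitals mark its 41 CG pairs, where the median of all 35116 promoters is 11 and 1.73% have at least as many. The window at the first FOXP1 start has 31 CG pairs, and the window near FOXP1_11 has 3.
FOXP1 promoter: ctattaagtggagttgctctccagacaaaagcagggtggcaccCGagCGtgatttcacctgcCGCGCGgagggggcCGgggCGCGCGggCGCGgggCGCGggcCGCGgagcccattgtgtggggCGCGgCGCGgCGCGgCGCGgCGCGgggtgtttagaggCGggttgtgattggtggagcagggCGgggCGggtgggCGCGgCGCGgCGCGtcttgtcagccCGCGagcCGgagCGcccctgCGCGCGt

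IRF8 and IRF4 are interferon regulatory factors with opposed uses in B cells. IRF8 (chr16:85899168-85922606, plus strand) supports the germinal center programme with PU.1, and IRF4 (chr6:391739-411443, plus strand) drives plasma cell differentiation when it is high. IRF8 stood at 47.4 and 45.8 RPKM in SU-DHL-5 with DMSO, at 48.8 and 50.5 with JQ1, at 3.76 and 4.21 in Toledo with DMSO and at 0.388 and 0.368 with JQ1. SU-DHL-5 was high in every library, and the JQ1 libraries of Toledo were lowest and did not overlap with its DMSO libraries. IRF8 fell by 3.09 on the log2 scale in Toledo, where the value was −1.85 and still called with 1 RPKM added. With nothing added the means were 10.5-fold apart (7.35 to 15.5 on reads), at 363 reads with DMSO and 33 with JQ1. In SU-DHL-5 the JQ1 libraries lay above DMSO, with a log2 ratio of 0.09 (0.03 to 0.15), short of 2-fold. With DMSO the level was 11.7-fold lower in Toledo (10.5 to 13.1).

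The 2 listed IRF8 transcripts begin 3.69 kb apart. The downstream form IRF8_2 took 8.05% of reads in SU-DHL-5 with DMSO (7.24% to 8.93%), 0.577% with JQ1 (0.370% to 0.858%), 66.4% in Toledo with DMSO (61.3% to 71.2%) and 33 of 33 reads with JQ1. The share in Toledo with DMSO was 44.7% in library 1 and 87.5% in library 2, so the leading transcript there depends on the library. In SU-DHL-5 with JQ1 all of its reads came from library 1, 24 of 2168, with 0 of 1988 in library 2, which allows up to 0.151%. IRF8_1 had 0 of 33 reads in Toledo with JQ1, which allows up to 9.09%. IRF8_1 led in SU-DHL-5 in every library. IRF8_1 has 2662 bases and IRF8_2 has 2635, in a gene of 2691, so the forms have most of their length in common. How reads common to both forms were divided is not stated. These shares describe the deposited values, and their intervals and limits do not cover that division.

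IRF4 levels were 0.0120 and 0.0111 RPKM in SU-DHL-5 with DMSO, 1 read in each library, and 0.0228 and 0.0257 with JQ1, 2 reads in each. In Toledo they were 44.2 and 53.3 with DMSO and 56.9 and 60.1 with JQ1. The lines did not overlap, and the log2 ratio of reads between Toledo and SU-DHL-5 with DMSO was 12.05, with a counting interval from 10.19 to 15.09. In Toledo the JQ1 libraries lay above DMSO, at a log2 ratio of 0.26 (0.23 to 0.31) and short of 2-fold, which was 0.13 without Toledo DMSO library 1 and 0.40 without library 2. At 6 reads in all, IRF4 in SU-DHL-5 was not tested between treatments.

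PRDM1 (chr6:106086320-106109939, plus strand) encodes the repressor BLIMP-1, which shuts down the B-cell programme in plasma cells. It had 0.137 and 0.209 RPKM in SU-DHL-5 with DMSO, 0.0307 and 0.0520 with JQ1, 0.215 and 0.320 in Toledo with DMSO, and 0.0780 and 0.0629 with JQ1. In SU-DHL-5 these were 17, 28, 4 and 6 reads and in Toledo 30, 41, 10 and 8, so PRDM1 stayed below the filter in all 4 samples and was not tested. The JQ1 libraries were below the DMSO libraries in both lines. The log2 ratio of reads was −2.10 (−3.25 to −1.09) in SU-DHL-5 and −1.91 (−2.75 to −1.15) in Toledo.

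The letters TGACTCA of AP-1 factors, close to those that BACH2 binds with small Maf partners, lay on either strand in 3 of 24 windows (of BCL6, MEF2C and PRDM1) and in 4.95% of all promoters. The PRDM1 stretch is shown because PRDM1 is a known target of BACH2. It is chr6:106098889-106098915, plus strand, GRCh38.p14, and the capitals mark the letters. Its window is 79 bases from the start of PRDM1_4, a transcript with 11 reads in Toledo DMSO library 1 and 0 in the other libraries. The longer Maf half-site with this core, TGC directly before TGAGTCA, was in 0 of 24 windows of the 9 genes and in 0.154% of all. An interferon regulatory factor element, GAAA and again GAAA after 2 bases, was in 0 of 24 and 3.57% of all, and a composite with ETS factors, GGAA and then GAAA after 2 bases, in 0 of 24 and 2.82%. No match says only that these letters are not in these windows. The 2 IRF8 windows, chr16:85902580-85902879 and chr16:85902765-85903064, do not reach the start of IRF8_1 at 85899168, which was not searched.
PRDM1 element: ttctacccagTGACTCAaagcactaaa

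XBP1 (chr22:28794560-28800572, minus strand) encodes the factor that builds the secretory apparatus of plasma cells, and its active form needs a cytoplasmic splice of its mRNA by ERN1 (IRE1). Its levels were 14.3 and 14.4 RPKM in SU-DHL-5 with DMSO, 6.06 and 6.35 with JQ1, 57.3 and 55.8 in Toledo with DMSO, and 29.3 and 28.7 with JQ1. The 4 samples did not overlap, in the order Toledo DMSO, Toledo JQ1, SU-DHL-5 DMSO and SU-DHL-5 JQ1. In SU-DHL-5 XBP1 fell by 1.20 on the log2 scale, from 854 to 351 reads (read interval −1.40 to −1.03), and was called. In Toledo the log2 ratio was −0.96, short of 2-fold, from 3492 to 1711 reads (−1.05 to −0.88). With DMSO the level was 3.94-fold higher in Toledo (3.65 to 4.25).

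The tables list the transcripts XBP1_1, of 1794 bases, and XBP1_2, of 1820. The 26 bases between them are the stretch that ERN1 removes, at chr22:28796124-28796149 in exon 4 of 5. They leave a remainder of 2 on division by 3, so their removal shifts the reading frame. The unspliced and spliced sequences are shown because this stretch separates the forms. They span chr22:28796084-28796189 on the minus strand of GRCh38, with exon positions from GENCODE v29, and the stretch is in capitals.
XBP1 unspliced: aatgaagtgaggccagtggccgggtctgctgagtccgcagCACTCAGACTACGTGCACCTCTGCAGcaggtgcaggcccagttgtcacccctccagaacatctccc
XBP1 spliced: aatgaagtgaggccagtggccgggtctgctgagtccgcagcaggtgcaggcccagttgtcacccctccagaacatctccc

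XBP1_1, the spliced form, took 30.8% of reads in Toledo with DMSO (29.2% to 32.3%) and 34.7% with JQ1 (32.5% to 37.0%). In SU-DHL-5 it took 2.58% with DMSO (1.62% to 3.87%) and 7.12% with JQ1 (4.66% to 10.3%). The Toledo libraries ranged from 29.3% to 36.7%, all above those of SU-DHL-5. In SU-DHL-5, library 2 carried all of the spliced reads, 22 of 446 with DMSO and 25 of 169 with JQ1, and library 1 had 0 of 408 and 0 of 182, which allow up to 0.735% and 1.65%. How reads that do not cross the stretch were divided between the forms is not stated, so these shares describe the deposited values.

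The XBP1 promoter is shown because it holds the ER stress response element, CCAAT followed after 9 bases by CCACG, searched on both strands, in 1 of 24 windows of the 9 genes and in 27 of all 35116 (0.0769%). It is RefSeq sequence of chr22:28800570-28800819, minus strand, GRCh38.p14, and the element, in capitals, begins at base −52 from the start.
XBP1 promoter: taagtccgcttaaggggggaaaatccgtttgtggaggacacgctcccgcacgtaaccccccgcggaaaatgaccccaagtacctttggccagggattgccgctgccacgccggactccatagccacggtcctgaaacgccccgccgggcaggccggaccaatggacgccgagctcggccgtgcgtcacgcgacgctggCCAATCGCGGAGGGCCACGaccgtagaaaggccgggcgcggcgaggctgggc

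**Figure D3:**
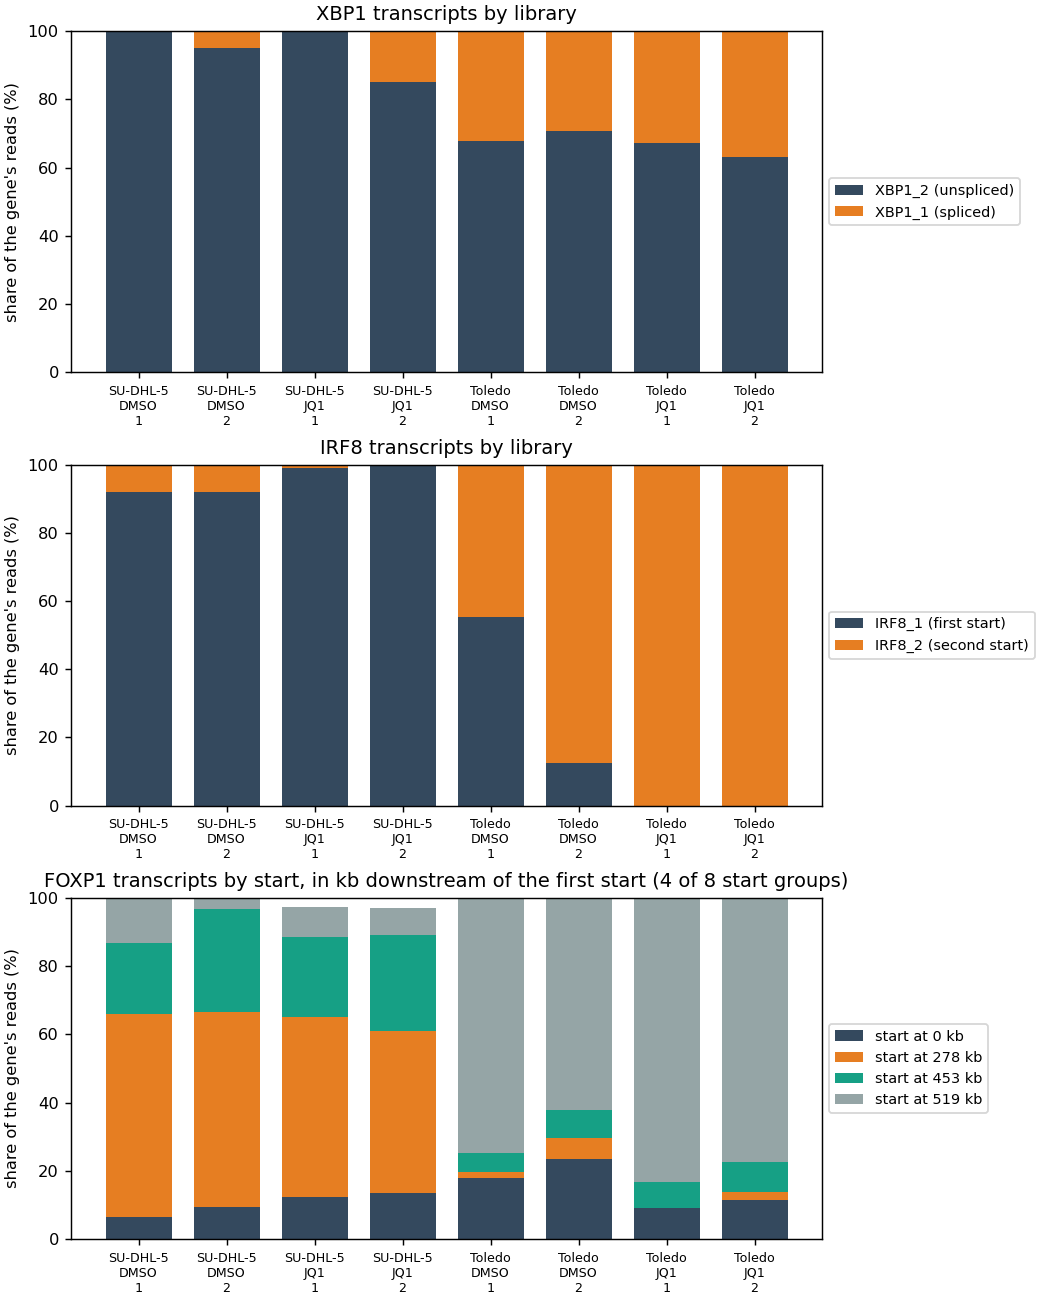
Share of the reads of a gene on each transcript or group of starts, in percent (vertical axis), for each library (horizontal axis), for XBP1, IRF8 and FOXP1. XBP1_1 reaches 29.3% to 36.7% in Toledo and at most 14.8% in SU-DHL-5. FOXP1 transcripts that start at 519 kb were given most reads in Toledo. Of 8 FOXP1 start groups 4 are drawn, and the gap to 100% in SU-DHL-5 with JQ1 is a start group that is not drawn.

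JQ1 against DMSO asks how BET inhibition moved these genes in each line. In SU-DHL-5, XBP1 was the 1 of 7 tested genes called lower, where 6.28% of 9316 genes were, and 0 were called higher, where 1.84% were. By the libraries alone 3 lay above DMSO (BCL6, IRF8 and MEF2B; 42.1% of all tested genes) and 2 below (XBP1 and MEF2C; 38.5%). In Toledo, IRF8 and MEF2C were the 2 of 8 tested genes called lower, where 8.01% of 9646 genes were, and 0 were called higher, where 1.93% were. There 3 lay above (BACH2, IRF4 and FOXP1; 29.5%) and 3 below (XBP1, IRF8 and MEF2C; 43.6%). The median log2 ratio of the tested genes was 0.08 in SU-DHL-5, beside 0.02 for all tested genes, and 0.01 in Toledo, beside −0.07.

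**Figure D4:**
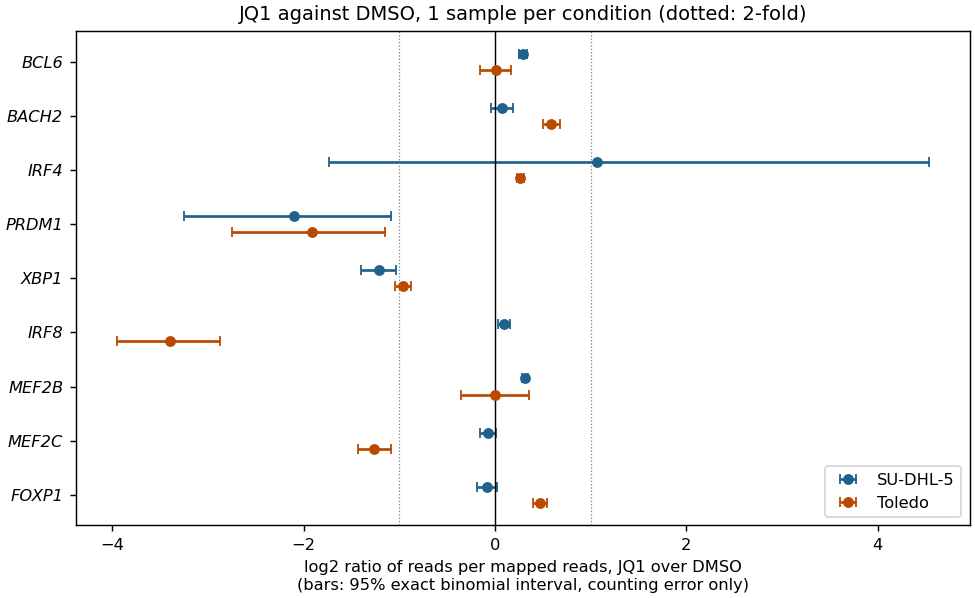
Log2 ratio of reads per mapped reads, JQ1 over DMSO (horizontal axis), for the 9 genes, with SU-DHL-5 and Toledo in different colours; bars are 95% exact binomial intervals of counting error and dotted lines mark 2-fold. IRF8 lies at −3.39 in Toledo and at 0.09 in SU-DHL-5, while XBP1, PRDM1 and MEF2C lie below 0 in both lines. The interval of MEF2C in SU-DHL-5 crosses 0, and PRDM1 was below the filter and not tested.

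Each gene's nearest profile was the gene with the smallest root mean square distance of centred log2 levels over the 8 libraries, among 9521 genes of at least 1 RPKM, and PRDM1, below that level, has none. BTK, a kinase of B-cell receptor signaling, was nearest to XBP1 at 0.0804, with RAB7L1 at 0.111. CD38, a surface enzyme high on plasma cells, was nearest to IRF4 at 0.158, followed by MARCKS at 0.184. RELL1 (0.0936) and AGA (0.115) were nearest to FOXP1, GCA (0.120) and SUCO (0.124) to BACH2, and DEPDC1 (0.179) and NAB1 (0.202) to MEF2C. ARHGEF26 (0.180) and BCAR3 (0.182) were nearest to BCL6, and PTK2 (0.165) and TUBA4A (0.253) to MEF2B. ARHGEF26 and PTK2 in Toledo and IRF4, CD38 and MARCKS in SU-DHL-5 were at or near 0, so the 0.1 RPKM added sets much of their distances. IRF8 had the most distant neighbours, KCNN3 at 0.485 and SRGN at 0.600.

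Related genes were counted in 5 lists with 74 genes, of which 62 were tested in each line. In SU-DHL-5, 1 was called higher and 10 lower, and in Toledo 2 were called higher and 10 lower. The background shares are those given for the same comparisons. For the lines with DMSO, 16.7% of tested genes were called higher in Toledo and 14.2% lower. LMO2, SERPINA9, CD27, MZB1, FKBP11, IGJ and CD80 are outside the rule for named genes and were chosen after their values were seen, as were DNAJB9, ERN1, HSP90B1, CD69, CD44, CCL3, CXCR4, TXNDC5, BCOR, HDAC5, HDAC7, HDAC9, MAFK and MEF2D.

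**Figure D5:**
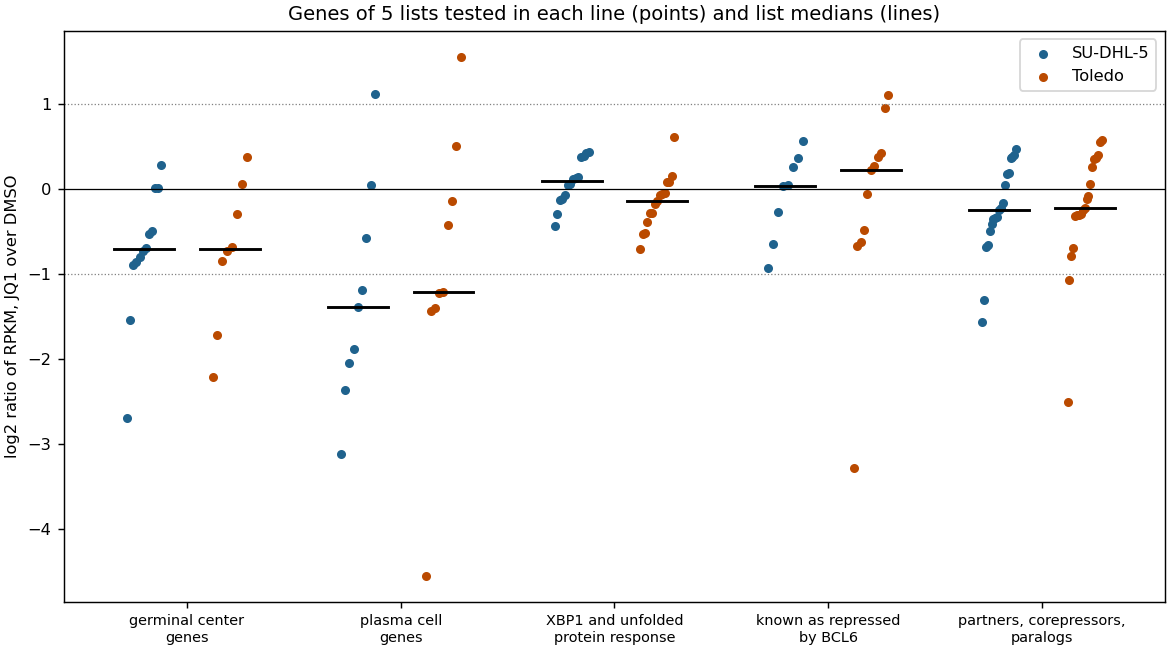
Log2 ratio of JQ1 over DMSO (vertical axis) for the tested genes of 5 lists (horizontal axis) in SU-DHL-5 and Toledo, with a point for each gene, black lines at list medians and dotted lines at 2-fold. The plasma cell median lies at −1.39 and −1.21, the unfolded protein response median at 0.09 and −0.15.

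The plasma cell list has 12 genes, of which 9 were tested in each line. In SU-DHL-5, 6 were called lower (CD27, FCRL5, FKBP11, IGJ, MZB1 and TNFRSF17), and in Toledo 5 (FCRL5, FKBP11, IGJ, MZB1 and TNFRSF17). ELL2, an elongation factor of antibody mRNA processing, was called higher in both. The list median was −1.39 in SU-DHL-5, beside 0.02 for all tested genes, and −1.21 in Toledo, beside −0.07. With 1 RPKM added, the medians were −1.11 and −0.56. The calls of ELL2 in both lines and of FCRL5 in Toledo ended under that setting. TNFRSF17 (BCMA), a survival receptor of plasma cells, had 3.78 and 3.14 RPKM in SU-DHL-5 with DMSO, 0.427 and 0.757 with JQ1, 26.2 and 21.9 in Toledo with DMSO and 0.804 and 1.06 with JQ1. It fell in both, at a log2 ratio of −2.36 for SU-DHL-5 and −4.55 for Toledo. IGJ, the joining chain of secreted antibody, had 95.6 and 93.7 RPKM and then 37.9 and 34.3 in SU-DHL-5, and 720 and 732 and then 271 and 264 in Toledo. ELL2 had 2.07 and 1.94 RPKM with DMSO and 4.54 and 4.38 with JQ1 in SU-DHL-5, and 0.703 and 0.765 and then 2.41 and 2.25 in Toledo. FCRL5 fell as well, at log2 ratios of −2.05 and −1.21, and CREB3L2, with 0.04 and −0.14, was not called. Between the lines with DMSO, 5 of 10 tested genes were called higher in Toledo (CD38, CREB3L2, IGJ, TNFRSF17 and TXNDC5) and 3 lower (CD27, ELL2 and FKBP11).

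The germinal center list has 13 genes, and 12 were tested in SU-DHL-5 and 8 in Toledo. With JQ1, LMO2 and SERPINA9 were called lower in SU-DHL-5 and RGS13 and STAP1 in Toledo, with 0 called higher in either, and the median was −0.71 in both lines. LMO2, a transcription cofactor of germinal center B cells, had 13.1 and 13.1 RPKM with DMSO and 2.03 and 1.86 with JQ1 in SU-DHL-5, and was listed at 0 in both DMSO libraries of Toledo. RGS13, which dampens chemokine signals, had 100.1 and 115 RPKM and then 80.9 and 71.0 in SU-DHL-5, and 0.869 and 1.14 and then 0.236 and 0.0396 in Toledo. Its Toledo call rests on 24 and 29 reads with DMSO and 6 and 1 with JQ1. The first DMSO library alone is below the filter of 1 RPKM, and the call ended with 1 RPKM added. STAP1 stood at 29.5 and 30.8 and then 16.3 and 15.9 in SU-DHL-5, and at 2.78 and 2.90 and then 0.818 and 0.761 in Toledo. MYBL1 had log2 ratios of 0.27 and 0.37. BCL7A had 13.3 and 14.6 RPKM with DMSO and 14.1 and 13.8 with JQ1 in SU-DHL-5. In Toledo BCL7A had 34.6 and 36.8 with DMSO and 29.4 and 28.5 with JQ1, a log2 ratio of −0.30, not called. Between the lines with DMSO, 9 of 12 were called lower in Toledo and BCL7A was called higher.

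The list of XBP1 and unfolded protein response genes has 15 genes, and with JQ1 0 of 14 tested in SU-DHL-5 and 0 of 15 in Toledo were called in either direction. The medians were 0.09, which was 0.0025 after centring by length, and −0.15. HSPA5 (BiP), the main chaperone of the endoplasmic reticulum, had log2 ratios of −0.29 and −0.54, PDIA6 −0.44 and −0.71, PDIA4 0.43 and −0.15, and DNAJC3 0.42 and −0.05 in SU-DHL-5 and Toledo. With DMSO, 3 of 15 tested genes were called higher in Toledo (DNAJB9, ERN1 and HSP90B1), where 16.7% of all tested genes were, and 0 lower. The list median between the lines was 0.26, with 8 genes above and 5 below without overlap. ERN1, the enzyme that splices XBP1 mRNA, had 0.881 and 1.38 RPKM in Toledo against 0.141 and 0.130 for SU-DHL-5.

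Of 13 genes known as repressed by BCL6, 8 were tested in SU-DHL-5 with 0 called, and 11 in Toledo with ID2 called higher and CD80 lower. The medians were 0.04 and 0.22, the latter 0.06 with no filter on low values. ID2, an inhibitor of E proteins, had 673 and 665 reads in Toledo with DMSO and 1399 and 1361 with JQ1, a log2 ratio of 1.11, and 0.03 in SU-DHL-5. EP300 had log2 ratios of 0.56 and 0.22, CDKN1A −0.93 and −0.62 and CHEK1 −0.27 and −0.68. With DMSO, 5 of 11 tested genes were called higher in Toledo, the line with less BCL6 (CCL3, CD44, CD69, CD80 and CXCR4), and 1 was called lower.

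The list of 21 partners, corepressors and paralogs had 19 tested genes in each line, with MAFF and SPI1 called lower in both and 0 called higher, at medians of −0.25 and −0.23. SPI1 (PU.1), the DNA-binding partner of IRF8 and IRF4, had 89.6 and 82.1 RPKM with DMSO and 34.3 and 35.1 with JQ1 in SU-DHL-5, and 59.3 and 58.6 and then 10.8 and 9.73 in Toledo. It fell in both, with log2 ratios of −1.31 and −2.51. MAFF, a small Maf partner of BACH factors, fell at −1.57 and −1.08, and its calls ended in both lines with 1 RPKM added. The paralogs FOXP4, at 0.47 and 0.34, and BACH1, at 0.40 and 0.57, were not called. With DMSO, 5 of 19 tested genes were called higher in Toledo (BCOR, HDAC5, HDAC9, MAFK and MEF2D) and HDAC7 was called lower.

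All 6 B-cell markers reached 1 RPKM in each of the 4 samples, and their summed level was 942 RPKM in SU-DHL-5 with DMSO, 633 with JQ1, 916 in Toledo with DMSO and 618 with JQ1, with CD79A most abundant in SU-DHL-5 and CD79B in Toledo. The 4 plasma cell markers summed to 99.3, 37.0, 751 and 269 RPKM in the same order, with IGJ most abundant, and SDC1 (CD138) was at 0 in Toledo with JQ1. T-cell markers summed to 1.12, 0.0827, 0.0770 and 0 RPKM, with CD3E the most abundant in SU-DHL-5, CD3D in Toledo with DMSO, and CD2 at 0 in each sample. The 3 monocyte markers summed to at most 0.124, the 2 erythroid markers to at most 0.371 and the 2 NK cell markers to at most 0.199, with FCGR1A at 0 in each sample. The part of the T-cell, monocyte, erythroid and NK cell markers in the results was not tested.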

How the data were processed

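RNA of SU-DHL-5 and Toledo was sequenced by the authors from stranded mRNA libraries with paired, trimmed reads, and the authors deposited RPKM per gene and per transcript. CASAVA 2.0 and GRCh38 are from the submitters' processing notes, and the labels and file headers name no aligner or annotation. Whole reads were recovered from RPKM with feature lengths from 100 to 40000 bases, at 14617583 to 17679831 mapped reads per library. The 2 libraries of a sample were averaged (n = 1).

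The genes and lists were chosen with earlier results of these data known. Named genes were the 9 genes, in each list the 2 with the lowest and the 2 with the highest mean log2 ratio of both lines among genes of at least 1 RPKM in both, and the 2 nearest profiles of each gene. IGJ is the table's symbol for JCHAIN. Transcript starts within 3000 bases were grouped. Leading transcripts were compared for genes with several transcripts and at least 20 reads in DMSO of both lines. Alternatives for the 9 genes varied the pseudocount, filter, scaling, length centring, table, fold and libraries, and those for the lists the pseudocount, filter and length centring. Shares have exact binomial (Clopper-Pearson) intervals, and the limit beside a count of 0 is 3 reads of the total. Neither covers how reads common to several transcripts were divided, which is not stated. The work ran on scipy 1.17.1, pandas 2.3.3 and numpy 2.4.6 under Python 3.11.15, with plots by matplotlib 3.10.9.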

Additional observations from a re-analysis of the deposited data

Results flagged for a closer look

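IRF8 lay on opposite sides of DMSO with JQ1 in the 2 lines. In SU-DHL-5 the JQ1 libraries were both higher than either DMSO library, in Toledo both were lower, and the log2 ratio in Toledo minus that in SU-DHL-5 was −3.19. With 1 RPKM added, the ratios were −1.85 in Toledo and 0.09 for SU-DHL-5. The difference was not tested, since each condition has 1 sample.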

How the results depend on the processing

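XBP1 was the 1 gene called in SU-DHL-5 with JQ1 under every alternative run. In Toledo, the count of 2 was 1 (IRF8, without MEF2C) with a pseudocount of 1 RPKM, and 1 to 2 over the libraries left out in turn, with 1 without Toledo DMSO library 2. It was 3 with no filter on low values, which adds PRDM1, and 3 at 1.5-fold, which adds XBP1. Between the lines with DMSO, 6 were called, 7 at 1.5-fold, which adds FOXP1, and 5 to 6 over the libraries left out, with 5 without Toledo DMSO library 1. The leading transcript with DMSO differed between the lines for 2 of 7 genes compared (IRF8 and FOXP1), for 1 (FOXP1) with library 1 of each sample alone and for 3 (BACH2, IRF8 and FOXP1) with library 2 alone. For the lists, 11 calls in SU-DHL-5 and 12 calls in Toledo became 9 and 8 with a pseudocount of 1 RPKM, 14 and 17 with no filter, and 11 and 12 after length centring, the alternatives run for them. With 1 RPKM added, the calls of ELL2 and MAFF ended in both lines, and those of FCRL5 and RGS13 ended in Toledo. The cause of these moves was not tested.

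Of 420 values under alternatives for 69 results, 340 stayed within the counting interval, the spread between libraries for list medians, or 1.5 times for counts, 80 moved by more, and 0 called values changed sign. Of 52 transcript shares with one library alone, 32 moved. In SU-DHL-5, genes of the longest class had a median log2 ratio of 0.19 with JQ1, and length centring subtracts it from BCL6, BACH2, MEF2C and FOXP1. No paired analysis was possible within a line because it holds 1 sample of each treatment, and a fit of both lines paired by line was not run. Depth limits PRDM1 in both lines, IRF4 in SU-DHL-5 and IRF8 in Toledo with JQ1, at fewer than 50 reads in each library, and the log2 ratio of IRF8 there was −1.85 with 1 RPKM added.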

Other observations

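Ratios between genes within a library were computed for 4 pairs. BCL6 over PRDM1 was 7.33 and 6.96 on the log2 scale (after adding 0.1 RPKM) in SU-DHL-5 with DMSO, 8.47 and 8.28 with JQ1, 2.97 and 2.68 in Toledo with DMSO and 3.92 and 3.93 with JQ1. IRF8 over IRF4 was 8.73 and 8.69 in SU-DHL-5 with DMSO, 8.64 and 8.65 with JQ1, −3.52 and −3.63 in Toledo with DMSO and −6.87 and −7.01 with JQ1. BACH2 over PRDM1 was 3.73 and 3.61 in SU-DHL-5 with DMSO, 4.83 and 4.56 with JQ1, 3.77 and 3.76 in Toledo with DMSO and 5.46 and 5.42 with JQ1. MEF2B over MEF2C was 5.16 and 4.88, then 5.41 and 5.40, in SU-DHL-5, and −0.13 and −0.90, then 0.59 and 0.79, in Toledo. PRDM1 in both lines and IRF4 in SU-DHL-5 rest on few reads, so the ratios that hold them depend on the 0.1 RPKM added.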
